A study of Mus musculus with 11 samples.

Results

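Of the POU5F1 ChIP-seq peaks called in mouse epiblast stem cells (EpiSCs), 14032 lay at an alternating purine-pyrimidine repeat and had no POU3F1 peak over them, out of 62387 POU5F1 peaks on chromosomes 1 to 19 and X and 1004445 peaks in the 10 lists of the series. The peaks were chosen by measured values and sequence together: a selected peak shared no base with an EpiSC POU3F1 peak, and the mm9 sequence within 100 bp of its midpoint held 20 or more consecutive bases that switched at every step between a purine (A, G) and a pyrimidine (C, T). Bases outside this window were not counted. These peaks are called members below. Because the POU5F1 list, the POU3F1 list and the stretches chose the members, those 3 properties are given as descriptions and support nothing.

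The series profiled ZIC2, OTX2, SOX2, POU5F1 and POU3F1 in EpiSCs of strain 129/Sv, which were kept without feeder cells in an N2/B27-based medium with activin (20 ng/ml) plus Fgf2 (10 ng/ml), and in the same cells deprived of activin for 18 h before harvest (EpiSCA, called activin-free here). Each factor was an exogenous protein made from a transiently transfected pCAGGS plasmid, fused to a peptide tag (BLRP) that the co-expressed BirA ligase biotinylates, and its chromatin was recovered on streptavidin. Every group therefore carried a transfected tagged factor in addition to the endogenous proteins. There was 1 library per factor and culture, so no value below has a replicate check and no p-value is given. Intervals are 95% Wilson intervals and cover counting error only. Where stretches are the unit, several can lie at 1 peak and were counted as separate, so those intervals are too narrow. Read depth is unknown, since the lists hold positions and scores. The input library was not analysed here, so whether input reads also pile up at these repeats was not tested. The score is the one written by the peak caller MACS and stands for the significance of a peak against input DNA, with a lowest listed value of 50 in the POU5F1 list.

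POU5F1 (Oct4) is a POU class transcription factor required for the pluripotent state, and it is known for binding the octamer sequence ATGCAAAT through a POU-specific domain and a homeodomain that each contact a part of the site. POU3F1 (Oct6) carries the same kind of DNA-binding domain and is expressed in the epiblast and in neural cells. Alternating purine-pyrimidine tracts, among which CA/TG repeats abound in mammalian genomes, are known for their ability to adopt the left-handed Z form of DNA.

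Sequences of 5 members are shown so that the repeats can be read directly, namely high-scoring members with short, intermediate and long mixed stretches, one with a TA repeat, and one with the dimer element described further below. All are on the plus strand of mm9 (NCBIM37), each spans a midpoint and the 100 bp on either side, and capitals mark the longest alternating stretch. The member with the highest score of all lay 4318 bp upstream of Tgfb2, which encodes a TGF-beta ligand (chr1:188534089-188534289), and its longest stretch was at the 20 bp minimum. The one with a 35 bp stretch lay in an intron of Ptgis, the prostacyclin synthase gene (chr2:167042522-167042722). A stretch of 91 bp lay 5151 bp from Gpr61, an orphan receptor gene (chr3:107962851-107963051). The top member with the dimer element lay in an intron of Coro2b, a coronin gene (chr9:62344738-62344938). The top member among TA repeats lay 12370 bp from Myt1, a neural zinc finger gene (chr2:181485567-181485767).
Tgfb2 member: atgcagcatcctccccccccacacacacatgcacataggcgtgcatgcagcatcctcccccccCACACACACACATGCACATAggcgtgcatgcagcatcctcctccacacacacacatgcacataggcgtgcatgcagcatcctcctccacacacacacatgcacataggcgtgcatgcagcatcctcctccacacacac
Ptgis member: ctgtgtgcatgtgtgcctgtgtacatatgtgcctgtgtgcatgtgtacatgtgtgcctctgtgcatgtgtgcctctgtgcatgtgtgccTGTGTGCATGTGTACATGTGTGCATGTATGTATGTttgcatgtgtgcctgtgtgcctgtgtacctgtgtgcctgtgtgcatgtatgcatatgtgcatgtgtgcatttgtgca
Gpr61 member: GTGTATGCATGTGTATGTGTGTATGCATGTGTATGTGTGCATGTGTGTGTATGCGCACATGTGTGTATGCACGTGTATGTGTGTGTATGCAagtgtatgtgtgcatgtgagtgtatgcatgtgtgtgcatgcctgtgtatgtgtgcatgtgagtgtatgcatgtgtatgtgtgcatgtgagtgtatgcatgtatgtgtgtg
Coro2b member: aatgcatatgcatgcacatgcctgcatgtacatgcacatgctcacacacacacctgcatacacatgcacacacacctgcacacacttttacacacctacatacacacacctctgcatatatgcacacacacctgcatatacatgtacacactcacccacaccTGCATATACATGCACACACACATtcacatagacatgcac
Myt1 member: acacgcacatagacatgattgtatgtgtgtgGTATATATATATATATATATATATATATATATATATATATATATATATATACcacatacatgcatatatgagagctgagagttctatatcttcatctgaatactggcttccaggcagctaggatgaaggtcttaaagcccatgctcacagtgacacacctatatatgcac

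In the first 4 of these windows, several alternating runs followed each other, broken by bases that did not alternate, and ATGCA or TGCAT recurred along the window. In the Myt1 window, ATGCAT lay just downstream of the TA run. Scores of the 5 members in EpiSCs were 3139.91 at Tgfb2, 3100 at Ptgis, Gpr61 and Coro2b, and 687.5 at Myt1. In the activin-free list, 4 of the 5 overlapping peaks scored 3100, a value that 3111 POU5F1 peaks of that list shared. The one at Myt1 scored 2734.13.

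Alternating stretches were frequent at POU5F1 peaks and rare at ZIC2, OTX2 and SOX2 peaks, which is given as a description since the rule used the stretches. The selected peaks made up 46.5% (46.0 to 47.1%) of the 30160 POU5F1 peaks without POU3F1. In windows 1000 bp to either side of the same midpoints, 4.62% held such a stretch. Among the 32227 POU5F1 peaks with a POU3F1 peak, 13.8% were at a stretch. For ZIC2, OTX2 and SOX2 the shares were 0.686%, 0.705% and 0.655%, each below the 4.59%, 4.02% and 3.41% of their own flanking windows. All EpiSC POU3F1 peaks were at a stretch in 4.15% of cases, against 4.28% of their flanking windows. Those without a POU5F1 peak had 2.30% against 4.03%, and those with one had 8.91% against 4.90%. In activin-free culture POU3F1 peaks had 5.04% against 4.22%.

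**Figure D1:**
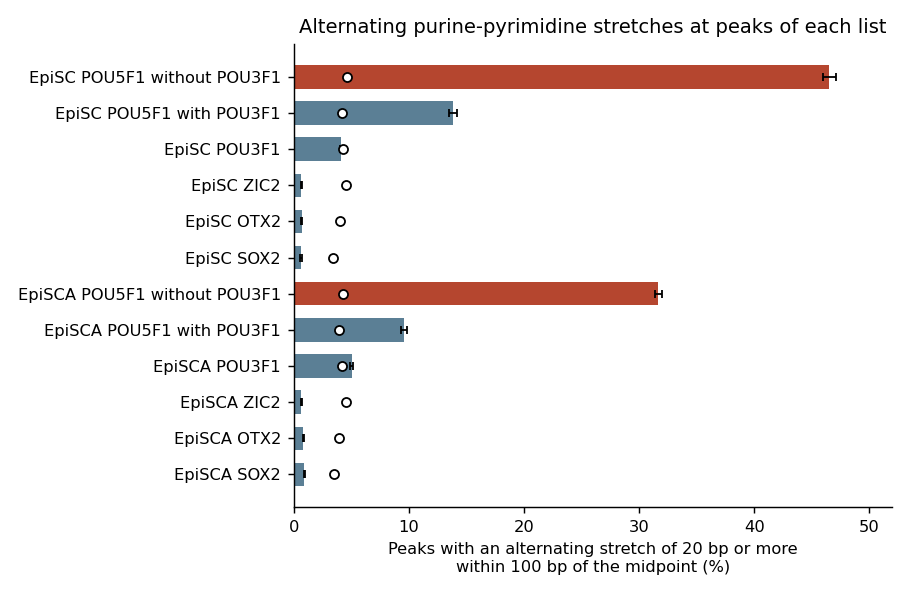
Share of peaks (%) with an alternating stretch of 20 bp or more within 100 bp of the midpoint, for each peak list. Bars are the shares with 95% Wilson intervals, open circles are the shares in windows 1000 bp to either side; the POU5F1 lists without POU3F1 stand at 46.5% in EpiSCs and 31.7% in activin-free culture, and all lists of ZIC2, OTX2 and SOX2 lie below 1%.

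Stretches were most frequent at the midpoints of the POU5F1 peaks. At the midpoint itself, 18.9% of POU5F1 peaks without POU3F1 had a base inside a stretch of 20 bp or more, and this share was 13.1% at 100 bp upstream on the plus strand, 12.7% at 100 bp downstream and 1.27% at 500 bp downstream. In the members, the centre of the longest stretch lay a median of 42 bp from the midpoint (quartiles 21 and 65 bp), and 26.3% of the stretches covered the midpoint, values that the window of the rule bounds. Most members held several repeats: 72.6% of the peaks contained at least 2 stretches of 20 bp or more, and 50.1% contained at least 3.

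**Figure D2:**
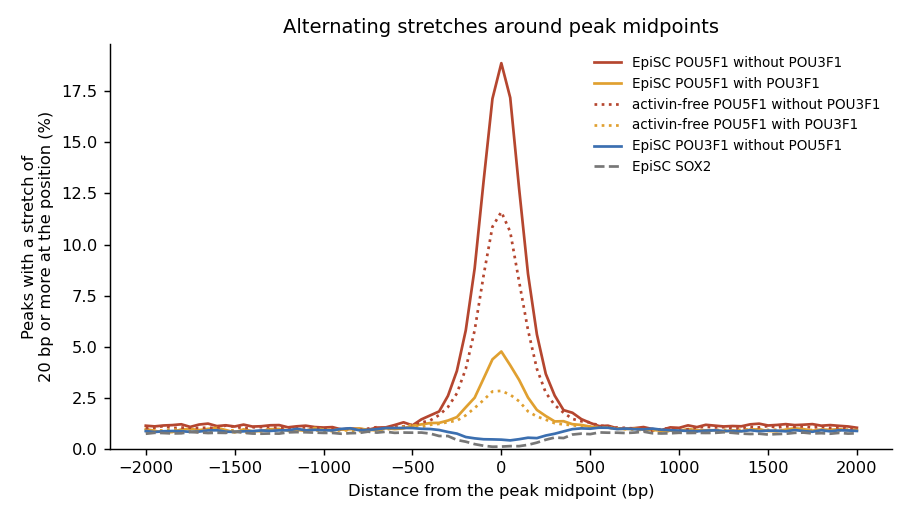
Share of peaks (%) with a stretch of 20 bp or more at each position, against the distance from the peak midpoint in bp. Each line is 1 set of peaks; POU5F1 peaks without POU3F1 reach 18.9% in EpiSCs and 11.6% in activin-free culture at the midpoint, those with POU3F1 4.76% and 2.84%, and the lines of POU3F1 without POU5F1 and of SOX2 dip at the centre.

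The repeats at the members were rarely simple CA/TG tracts. A stretch was called a CA/TG repeat when at least 90% of its purine-pyrimidine steps were AC, or at least 90% GT, a TA or CG repeat when at least 90% were AT or GC, and mixed otherwise. By this definition the longest stretch was mixed in 13607 members (97.0%), a CA/TG repeat in 409 (2.92%, 2.65 to 3.21%), a TA repeat in 16 (0.114%) and a CG repeat in 0 (upper bound of the interval 0.0274%). The genome was different in makeup: of its 574708 stretches of 20 bp or more, 200907 (35.0%) were CA/TG repeats, 350093 (60.9%) were mixed, 23680 were TA repeats and 28 were CG repeats. Of the mixed stretches 9.55% had an EpiSC POU5F1 midpoint within 100 bp, with or without POU3F1. The same held for 0.427% of the CA/TG repeats and 0.228% of the TA repeats. Of the CA/TG repeats of 60 bp or more, 0.261% were at a POU5F1 midpoint. Whether reads can be placed uniquely in such repeats was not examined.

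Among the 409 members of the CA/TG class, 180 held ATGCAT somewhere in the window and 292 had a mixed stretch of 20 bp or more elsewhere in the peak. Their median score was 119, compared with 168 for the mixed class and 182 for the 16 TA members.

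Within mixed stretches, the share at a POU5F1 peak went with the sequence ATGCAT, which itself alternates purines and pyrimidines and reads the same on both strands. Of the mixed stretches with ATGCAT inside, 16.9% had an EpiSC POU5F1 midpoint within 100 bp, against 7.99% of those without it. With ATGCAT the share was 13.4% for stretches of 20 to 29 bp, 18.4% for 30 to 39 bp, 20.0% for 40 to 59 bp and 24.6% for 60 bp or more. Without it, the corresponding shares were 8.72%, 8.51%, 6.39% and 6.79%, so length alone did not go with a higher share.

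Counting the members only, 6.53% of mixed stretches with 0 copies of ATGCAT, 11.7% with 1, 15.8% with 2 and 22.0% (20.5 to 23.5%) with 3 or more were at a member. The median lengths of these stretches were 30, 28, 32 and 43 bp. In all, 26729 mixed stretches were at a member, though there were 14032 members. A single peak was thus often counted several times, and the intervals are too narrow. Held to stretches of 40 to 59 bp, the shares were 5.11%, 13.4%, 20.8% and 21.9% (19.2 to 24.95%), and the last pair had overlapping intervals.

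**Figure D3:**
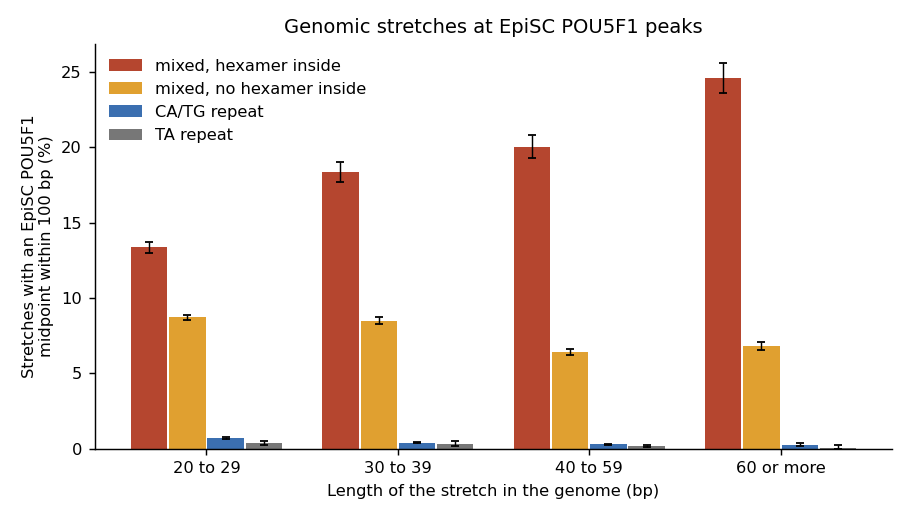
Share (%) of the genome's alternating stretches that have an EpiSC POU5F1 midpoint within 100 bp, by the length of the stretch in bp and by its composition. Bars are shares with 95% Wilson intervals, which count stretches at the same peak as separate. Mixed stretches with the hexamer ATGCAT inside rise from 13.4% to 24.6% with length. Mixed stretches without it lie between 6.39% and 8.72%, and CA/TG and TA repeats lie below 1%.

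The composition of purine-pyrimidine steps told the same stretches apart. Of mixed stretches in which no step was AT, 0.719% were at a member. The share was 4.32% where 10 to 20% of steps were AT, 13.7% (13.4 to 13.9%) where 30 to 50% were, and 5.91% where more were. At any EpiSC POU5F1 midpoint, with or without POU3F1, the shares were 16.6% where 30 to 50% were AT and 9.69% where more were. For GC steps the shares were 5.51% with none, 9.88% with 10 to 20%, and 2.88% (2.16 to 3.81%) where at least 50% of steps were GC. Over all mixed stretches with a member, 55.6% of steps were AC or GT, 35.3% AT and 9.10% GC. The corresponding values were 60.6%, 31.4% and 8.01% in mixed stretches without a POU5F1 midpoint. That these stretches combine kinds of steps is set by the definition of the mixed class.

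The alternating sequences of 8 bases found in at least 1000 mixed stretches were ranked by the share of those stretches at a member, a ranking chosen after the classes had been seen. Of the 241 sequences ranked (each taken with its reverse complement), GCATATGC came first, with 562 of 3288 stretches (17.1%). It was followed by CATATGCA with 3559 of 21227 (16.8%) and ACATATGC with 3126 of 18930 (16.5%). At the other end stood CGCGCGCG with 107 of 8339 (1.28%) and GCGCGCGC with 142 of 9711 (1.46%). None of the first 8 sequences contained ATGCAT, and the first that did was ATGCATAC at rank 9 (15.01%). The octamer ATGCATAT was at rank 50, with 3133 of 25616 stretches (12.2%). Members leave out POU5F1 peaks with POU3F1, so the rule itself bears on these ranks. With every EpiSC POU5F1 midpoint counted, the shares were 22.05% for GCATATGC, 20.09% for ATGCATAC and 17.36% for ATGCATAT.

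Octamers were searched on both strands within 100 bp of the midpoint. ATGCATAT, a variant of the octamer that contains ATGCAT and is itself alternating, was present at 26.0% (25.3 to 26.7%) of members, compared with 8.02% of the 16128 POU5F1 peaks without POU3F1 away from stretches, 12.9% of all EpiSC POU5F1 peaks and 1.24% of the windows 1000 bp from the members. ATGCAAAT, in which the run of A breaks the alternation, was present at 3.38% of members and at 7.81% of the POU5F1 peaks away from stretches, with 1.35% in the members' flanking windows. Either octamer was present at 28.4% (27.7 to 29.2%) of members and 15.1% of the peaks away from stretches. The letters ATGCAT occurred at 56.7% of members, at 23.9% of the peaks away from stretches, at 31.8% of all POU5F1 peaks and at 6.71% of the members' flanking windows. An alternating window favours letters that alternate, so windows of the same length around mixed stretches without a POU5F1 midpoint in either culture were counted as well: 28.2% of these 293768 windows held ATGCAT, 12.7% held either octamer and 1.64% held ATGCAAAT.

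These letters were not particular to the members among POU5F1 peaks at a stretch. The 4457 POU5F1 peaks at a stretch that had a POU3F1 peak held ATGCATAT in 32.4% (31.1 to 33.8%) of cases, either octamer in 35.7% (34.3 to 37.1%) and ATGCAAAT in 5.18%, all above the members. They held ATGCAT in 56.4% (54.9 to 57.8%), beside the 56.7% (55.9 to 57.5%) of members, with overlapping intervals.

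The dimer element, ATGCAT 2 times in tandem, was found at 123 members (0.877%), at 1.14% (0.871 to 1.501%) of the POU5F1 peaks with POU3F1 at a stretch, in 0.0178% of the members' flanking windows and in 0.275% of the windows around mixed stretches without POU5F1. The SOX-type sequences ACAATG or ACAAAG were at 17.7% of members and at 29.9% of the peaks away from stretches, beside 20.9% of the windows at mixed stretches without POU5F1 and 26.9% of the members' flanking windows. The ATGCAT hexamer lay inside the longest stretch itself in 32.2% of members.

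Members scored higher than the other POU5F1 peaks without POU3F1. Their median score was 166 (quartiles 85.8 and 379), whereas that of the peaks away from stretches was 96.5 (66.0 and 175), that of POU5F1 peaks with POU3F1 was 213 at a stretch and 140 away from one. When the whole list was divided into sixths by score, 71.8% (70.5 to 73.1%) of the POU5F1 peaks without POU3F1 in the highest sixth were at a stretch. This share was 57.9%, 47.4%, 41.2% and 36.2% in the next 4 sixths and 31.6% (30.4 to 32.8%) in the lowest. Each sixth lay below the one before it, by more than the counting intervals.

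Among the members, the median score differed by a similar amount with the length of the stretch and with the letters it held. It was 150 for stretches of 20 to 29 bp, 174 for 30 to 39 bp, 169 for 40 to 59 bp and 189 for 60 bp or more. With ATGCAT inside the longest stretch it was 187, without it 157. With either octamer in the window it was 191, and without one 157. Just inside the threshold, the 495 members with a 20 bp stretch had a median score of 140, and just outside it, the 689 POU5F1 peaks without POU3F1 whose longest stretch was 19 bp had a median of 130.

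The members were of intermediate width and few were broad. Their median width was 936 bp, against 869 bp for the peaks away from stretches and 1039 bp for those with POU3F1 away from stretches. Only 41 members (0.292%) were wider than 2000 bp, compared with 1.04% of the peaks without POU3F1 away from stretches. The share was 3.15% over all EpiSC POU5F1 peaks. These include the peaks with POU3F1, where it was 2.45% at a stretch and 5.94% away from one.

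The 10 members with the highest scores had scores of 3100 or more, a value at which 9 of them were tied. All 10 had mixed stretches of 20 to 91 bp and all 10 overlapped an activin-free peak scored 3100. That score was a common tie: 3111 activin-free POU5F1 peaks had exactly 3100 and 355 scored higher, against 40 and 7 in the EpiSC list. Of these, 5 lay in introns. They were in Ptgis, in Slc44a5, a choline transporter-like gene, in Coro2b, in C1qtnf1, which encodes a secreted complement C1q-related protein, and in Mrps18a, which encodes a protein of the mitochondrial ribosome. The other 5 lay outside genes, and the nearest protein-coding bodies were Tgfb2 at 4318 bp, Camk1g (a calmodulin-dependent kinase) at 15269 bp, Gpr61 at 5151 bp, Cmas (a sialic acid activating enzyme) at 6304 bp and Cdc42se2 (a CDC42 effector) at 3976 bp. Their peaks held from 3 to 35 stretches of 20 bp or more.

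In the activin-free list, which holds 126908 POU5F1 peaks against 62457, nearly all members were called again. Of the 14032 members, 13851 (98.7%, 98.5 to 98.9%) overlapped an activin-free POU5F1 peak, close to the 98.3% of all EpiSC POU5F1 peaks, and above the 95.8% (95.5 to 96.1%) of the peaks without POU3F1 away from stretches. When only the highest-scoring activin-free peaks were used, as many as the EpiSC list holds, 84.1% of the members were overlapped. No share under that cut is given for the other POU5F1 peaks, so this value has no background beside it. By score sixth, the share of members overlapped was 100% in the first pair of sixths, 99.7% in the fourth, 97.5% in the fifth and 93.4% (92.2 to 94.4%) in the lowest. In that lowest sixth, 89.2% (88.2 to 90.1%) of the peaks away from stretches were overlapped.

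The score of the overlapping activin-free peak was higher than the EpiSC score for 98.5% of the 13851 members and for 98.4% of all EpiSC POU5F1 peaks with an overlap. Over these 13851 members the median score was 169.8 in EpiSCs and 682 in the activin-free list, with a median ratio of 3.48 (quartiles 2.48 and 4.81). The ratio was 3.26 for the peaks away from stretches and 4.33 for those with POU3F1 away from stretches. Scores were not scaled between libraries, and library and culture cannot be told apart. The highest activin-free score was 3233.06, with many ties at 3100, which bounds the ratio for strong peaks. As a rank within its own list, the median member stood at percentile 58.5 in EpiSCs and 78.5 in activin-free culture. The lists differ in length, and the median over all EpiSC POU5F1 peaks went from 50, which is so by construction, to 76.8, a larger difference than that of the members.

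The 181 members without an activin-free POU5F1 peak were weak and narrow. Their median score was 60.6 (quartiles 53.9 and 70.3), their highest was 201.6, in an intron of Sept6 on chromosome X, and their median width was 647 bp. Their stretches had a median length of 31 bp, compared with 35 bp in the members that were called again.

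**Figure D4:**
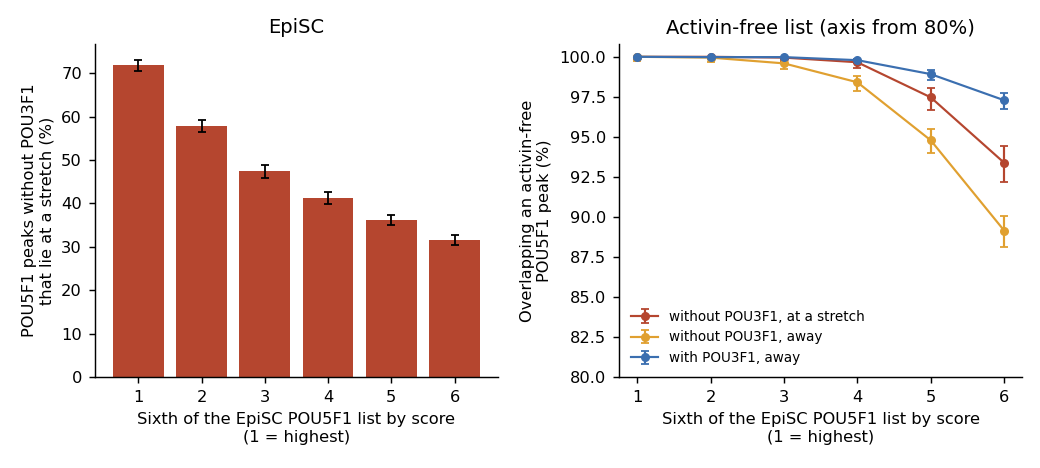
Left, share (%) of EpiSC POU5F1 peaks without POU3F1 that lie at a stretch, by sixth of the list ordered by score; right, share (%) of 3 sets of EpiSC POU5F1 peaks that overlap an activin-free POU5F1 peak, on an axis that starts at 80%. Error bars are 95% Wilson intervals; the left share falls from 71.8% to 31.6%, and in the lowest sixth 93.4% of the selected peaks and 89.2% of the peaks away from stretches were overlapped.

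The activin-free POU5F1 list, which the rule did not use, held alternating repeats as well. There, 31.7% (31.3 to 32.0%) of the 68086 POU5F1 peaks without an activin-free POU3F1 peak were at a stretch, beside 4.31% of their flanking windows and 9.57% of the POU5F1 peaks with POU3F1. Cut to as many top-scoring peaks as the EpiSC list holds, the share without POU3F1 was 43.2% (42.6 to 43.7%). The 67002 activin-free peaks with no EpiSC POU5F1 peak, which share no peak with the members, had a stretch in 16.1% (15.8 to 16.4%) of cases. Of the 38740 of these that also had no activin-free POU3F1 peak, 22.7% (22.3 to 23.1%) had one. The 13854 activin-free peaks that overlapped a member had a stretch at their own midpoint in 83.1% of cases, a share that the choice of the members largely sets.

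Few members gained a POU3F1 peak in activin-free culture. A total of 576 (4.11%, 3.79 to 4.45%) overlapped one, against 9.21% of the peaks away from stretches and 50.6% of all EpiSC POU5F1 peaks, a background that includes the peaks with EpiSC POU3F1. The nearest EpiSC POU3F1 midpoint was a median of 43728 bp from a member and 15903 bp from a peak away from stretches.

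Most members stood without any other factor. In EpiSCs, 82.9% (82.2 to 83.5%) overlapped no ZIC2, OTX2 or SOX2 peak, beside 78.8% of the peaks without POU3F1 away from stretches. SOX2, which often binds next to POU factors, was at 307 members (2.19%), below the 7.23% of the peaks away from stretches and the 8.02% of all EpiSC POU5F1 peaks. OTX2, a homeodomain factor of the epiblast and anterior neural plate, was at 847 (6.04%), below 10.3% and 7.86%. ZIC2, a zinc finger factor, was at 1433 (10.2%, 9.72 to 10.7%), above the 7.57% of the peaks away from stretches and above the 5.26% of all EpiSC POU5F1 peaks, which include those with POU3F1, where ZIC2 was at 2.65% and 1.84%.

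The order was the same in activin-free culture, measured in other libraries. SOX2 peaks of that culture lay at 2.95% of members, with 10.1% of the peaks away from stretches and 10.7% of all POU5F1 peaks beside them. OTX2 lay at 6.83%, with 12.8% and 11.6%. ZIC2 lay at 8.68%, with 6.88% and 4.7%.

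The members occupied the same kinds of places in the genome as the other POU5F1 peaks without POU3F1, except that few were in exons. By the GENCODE annotation of this build, 6248 midpoints (44.5%, 43.7 to 45.4%) were in an intron, 107 (0.763%) in an exon and 7677 (54.7%) outside any transcript. For the peaks away from stretches the shares were 44.9% (44.1 to 45.7%), 2.65% and 52.5%, so the intron shares had overlapping intervals. All stretches of 20 bp or more in the genome were in introns in 41.3% of cases and in exons in 1.02%, and 37.8% of genome bases were intronic and 3.40% exonic. POU5F1 peaks with POU3F1 were in longer introns. The intron that held a member had a median length of 18910 bp, as against 20135 bp for the peaks away from stretches, 34136 bp for those with POU3F1 and 19332 bp for mixed stretches of the genome. Intronic members lay a median of 3658 bp from the nearest exon, and 12.7% lay within 500 bp of one.

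The distance to the nearest transcription start site (TSS) was also near that of the peaks away from stretches. Its median was 25772 bp for members and 25723.5 bp for the peaks away from stretches, whereas it was 49094 and 51562 bp for POU5F1 peaks with POU3F1 at and away from a stretch. A TSS lay within 50 kb of 66.8% (66.0 to 67.6%) of members, of 65.8% (65.1 to 66.6%) of the peaks away from stretches, of 57.5% of all EpiSC POU5F1 peaks and of 63.0% of the genome's stretches. Within 1000 bp of a TSS were 369 members (2.63%, 2.38 to 2.91%) and 3.67% (3.39 to 3.97%) of the peaks away from stretches. Most members thus lay more than 1000 bp from a TSS, and most had one within 50 kb. By the medians, members lay nearer to TSSs than POU5F1 peaks with POU3F1.

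Most members had no other member within 10 kb, and most had one within 50 kb. The median distance to the nearest other member was 38784 bp (quartiles 13741 and 97163 bp), 57.1% of members had another within 50 kb, and the nearest POU5F1 peak of any kind lay at a median of 13261 bp. Chaining members with midpoints within 10 kb of the next left 11281 members (80.4%) alone and gave 1244 clusters of at least 2, of which 202 held at least 3 and 11 held at least 5. The fullest cluster held 7 members over 26355 bp, 5701 bp from the keratin gene Krt78 on chromosome 15. The next 2 held 6 members each, one of them over 15389 bp in introns of Adrbk2, a kinase of G protein-coupled receptors, with a median score of 396. Every member of these 3 clusters was called again in activin-free culture, beside 98.7% of all members.

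Over 1 Mb segments, the number of members went with the number of mixed stretches, to which the rule itself contributes. Across 2540 segments, which share libraries and base composition, Pearson's r was 0.82 (Spearman's coefficient 0.75) with the count of mixed stretches, 0.58 (0.64) with that of CA/TG repeats, 0.28 (0.38) with other POU5F1 peaks without POU3F1 and -0.28 (-0.27) with POU5F1 peaks that had POU3F1. With GC content r was 0.60 (0.67). These values are descriptions of the map and come without a test. Every member has a stretch by the rule, and the longest was mixed in 97.0% of them. The coefficient with mixed stretches is therefore partly set by the rule. The exclusion of POU3F1 peaks likewise bears on the coefficient with POU5F1 peaks that had POU3F1. A median of 4 members lay in a segment, the highest number was 45, and 278 segments (10.9%) held none.

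Chromosome X stood apart. It held 214 members, 1.32 per Mb, whereas the autosomes held from 4.28 (chromosome 14) to 7.43 per Mb (chromosome 5). Mixed stretches were also fewer on X, at 87.0 per Mb against 120 to 165, but the share of them at a member was lower too, at 2.04% against 6.01 to 9.51%. Other POU5F1 peaks without POU3F1 were at 4.12 per Mb on X against 5.40 to 7.31, and POU5F1 peaks with POU3F1 were at 10.6 per Mb on X, inside the autosomal range of 7.51 to 16.6. Members on X had a median score of 96.5, below the 143 to 206 of the autosomes. Of the 214 members on X, 11.7% had a POU3F1 peak in activin-free culture, beside 2.46 to 6.35% on the autosomes and 4.11% of all members.

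**Figure D5:**
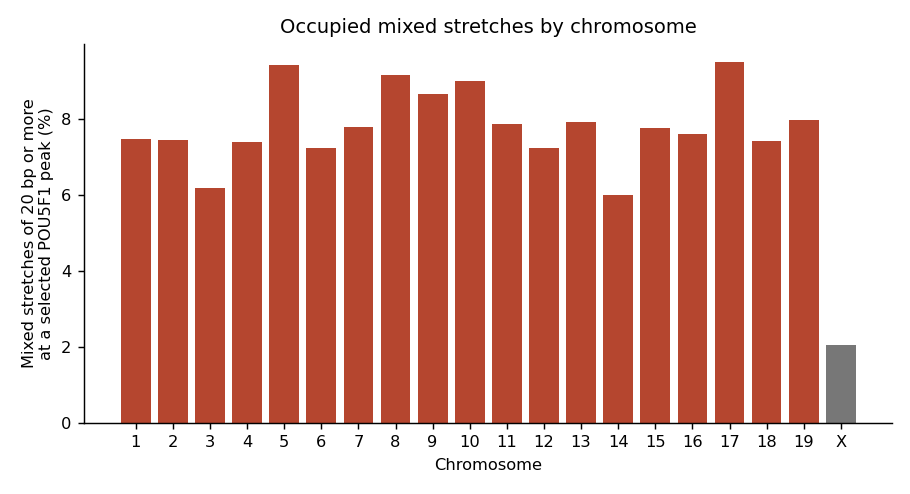
Share (%) of the mixed alternating stretches of 20 bp or more on each chromosome that are at a selected POU5F1 peak. The bar of chromosome X stands at 2.04%, and the bars of the autosomes run from 6.01% on chromosome 14 to 9.51% on chromosome 17.

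By gene, 3253 of 22350 protein-coding gene models (14.6%) held at least 1 member in their bodies, 1157 held at least 2, and 42 held at least 10. The share rose with gene length, from 0.779% of genes under 10 kb to 50.5% of those of 100 to 200 kb and 89.0% (83.9 to 92.6%) of the 200 genes of 500 kb or more. Per 100 kb of body, the numbers differed less, being 0.207 under 10 kb and 0.535 at 10 to 50 kb. They were 0.643 at 100 to 200 kb, highest at 200 to 500 kb with 0.696, and 0.599 at 500 kb or more. Across the 13494 genes of 10 kb or more, Pearson's r of the number of members was 0.81 with the number of mixed stretches in the body. With the length of the body it was 0.65. Both are descriptions, and the first is again partly set by the rule.

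Ranked by the number of members, the first entry was Gm20388, a predicted gene model of 4435 kb that encloses 72 other protein-coding genes, with 74 members. The fourth was Fgfr2, the FGF receptor gene, with 24 members. Its model in this annotation spans 3009 kb and encloses 31 other genes, so those members are not assigned to Fgfr2 in particular. Cdh13, which encodes T-cadherin and encloses no other protein-coding gene, held 27 members in 1041 kb. Of its 353 mixed stretches, 65 (18.4%) were at a member, compared with 7.90% over all gene bodies. Cdh13 was named for its many members, so a share above that of all bodies follows in part from the choice. Some of the 65 stretches lay at the same member. Camta1, a calmodulin-binding transcription activator, held 26 and the RNA-binding gene Rbms3 held 21.

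The other 10 genes of this ranking held 13 to 18 members each. They were Cdh4 (R-cadherin) and Csmd1 with 18, Ptprm (a receptor tyrosine phosphatase) and Sox5 (a SoxD family factor) with 16, Disc1 (a scaffold protein), Dscam (an adhesion molecule) and Nckap5 with 15, Negr1 (an adhesion molecule of neurons) with 14, and Dnahc8 (an axonemal dynein heavy chain) and Pde10a (a cyclic nucleotide phosphodiesterase) with 13. All members in the 15 genes were intronic, and all overlapped an activin-free POU5F1 peak. Both are near the background. Of the 6002 members in protein-coding bodies, 5915 were in introns of protein-coding transcripts, and 98.7% of all members overlapped an activin-free peak. Median scores ran from 125 in Negr1 to 359 in Pde10a.

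Ranked by density, the leading genes were shorter. Arhgap40 held 4 members in 38.0 kb (10.5 per 100 kb), and 9 of its 19 mixed stretches were at a member. Its choice by density bears on that share. Ccdc13 had 9.56 per 100 kb and 5330437I02Rik 9.38. Adrbk2 held 9 members in 105 kb (8.55 per 100 kb), Cwh43 had 8.45, Txnrd2, a mitochondrial thioredoxin reductase, 7.60, and Bcas1 7.42. Disc1, with 7.22 per 100 kb, was the only gene in both rankings. Nrap, which encodes a muscle anchoring protein and has 2 overlapping gene models here, held 5 members, with a highest score of 2163.54. All members in these genes were called in activin-free culture, beside 98.7% of all members. All were intronic but 1 of the 4 in Txnrd2.

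Members were then counted in 4 lists of genes, chosen with earlier results of these data known. Of 38 pluripotency and epiblast regulators, 2 held a member, namely Jarid2, a cofactor of the Polycomb complex PRC2, with 2 (scores up to 1582.63) and Tcf7l1, a repressor of the Wnt pathway, with 1. Of 39 germ layer and neural plate regulators, 2 did, namely the homeobox genes Meis1 and Meis2 with 1 each. Prdm14 and Sox17, the next genes of these 2 lists by the naming rule, held 0. Both shares, 5.26% (1.46 to 17.3%) and 5.13% (1.42 to 16.9%), are to be read beside the 14.6% of all protein-coding genes. The median gene lengths in these lists were 11.2 and 6.88 kb, beside 15.4 kb over all protein-coding genes. A member was held by 0.779% of protein-coding genes under 10 kb and by 11.3% of those of 10 to 50 kb. Per 100 kb of body the lists held 0.219 and 0.232 members, against 0.603 over all protein-coding genes. That density was 0.207 in genes under 10 kb and 0.535 in those of 10 to 50 kb. Of the lists' mixed stretches, 1.95% and 4.04% were at a member, against 7.90% over all protein-coding genes. In genes under 10 kb this share was 5.65%, and in those of 10 to 50 kb 7.62%. Gene length thus bears on these comparisons. These values rest on 3 and 2 members.

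Of 43 gene models for activin, FGF and Wnt signalling, 6 held a member (13.95%, 6.56 to 27.3%), near the 14.6% of all protein-coding genes. Per 100 kb of body the list held 0.502 members against 0.603, and 7.91% of its mixed stretches were at a member against 7.90%. Of its 31 members, 24 lay in the Fgfr2 model, which encloses other genes. Besides Fgfr2, these were Fgf14 with 3 members, and Wnt8a, Lefty2 (an antagonist of Nodal), Fgf2 and Fgf10 with 1 each. The member in Wnt8a scored 1006.

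The last list was of long genes, most of them for neuronal adhesion, guidance and channel proteins. It also holds long genes of other kinds, among them Fhit, Park2, Pde4d, Macrod2, Wwox, Dmd and Sgcz, and 4 short extra models of Magi2, Ptprd and Pde4d from 0.372 to 3.77 kb. Of its 77 models 63 held a member (81.8%, 71.8 to 88.9%), with 328 members in all. Cdh13, Csmd1 and Negr1 held most. Per 100 kb of body this list had 0.453 members against 0.603 over all protein-coding genes and 0.599 over the genes of 500 kb or more. Of its mixed stretches 5.31% were at a member, against 7.90% and 7.41%. Both values were lower in this list than over all protein-coding genes and than over the genes of 500 kb or more.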

How the data were processed

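Peaks of ChIP-seq libraries of ZIC2, OTX2, SOX2, POU5F1 and POU3F1 from EpiSC and activin-free EpiSC cultures were analysed, with 1 library per group. The authors aligned reads to mm9 with Bowtie2, called peaks per library with MACS1.4 against input DNA and deposited, for each peak, its position and a score in column 5, where MACS1.4 writes 10 times the −log10 of its p-value. Scores were used as deposited and were not scaled between libraries. Read counts are not in these lists, so depth is unknown, and the input library was not analysed here.

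The members and gene lists were chosen with earlier results of these data known. Alternating stretches and motifs were searched in NCBIM37 (the mm9 sequence) with python 3.11.15, numpy 2.4.6, pandas 2.3.3 and scipy 1.17.1, and figures were drawn with matplotlib 3.10.9. Peaks were compared by 1 bp overlap. Genes, introns, exons and TSSs were those of GENCODE vM1 on the same build, and an intron is any base of a transcript outside all exons. Flanking windows lay 1000 bp to either side. Shares are given with 95% Wilson intervals. The search functions were tested on simulated data.

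Named genes were the 15 protein-coding genes with most members, the 10 with most members per 100 kb among those with at least 4, the genes holding or nearest to the 10 highest scores, and the 3 genes of each list with most members; equal scores were taken in chromosome order. Lefty2, Fgf2, Fgf10, Sept6, Krt78, the other genes of the list of long genes and the sequences of 8 bases were named after their values were seen. Sequences on chromosome 18 were not printed, and some other sequences are not reported here. No map of where short reads can be placed was used.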

Additional observations from a re-analysis of the deposited data

How the results depend on the processing

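With 1 library per group no replicate could be left out and no value has a test. No paired analysis was possible because each group has 1 sample. Of 53 alternative values, 22 stayed within the counting interval (or 1.5 times the count) of the value reported, among them the intron and TSS shares under every change of score, length, window or POU3F1 margin. The cause of the other shifts was not tested, beyond the settings' own construction. With POU5F1 scores of at least 100, the share at a stretch was 55.4% in EpiSCs and 36.5% activin-free, the activin-free overlap 99.6%, the median score 269, the nearest member at 50987 bp, the CA/TG share 2.53% and the octamer share 30.2%. With stretches of at least 30 bp, 9075 members remained by count, with shares of 30.1% and 19.9%, an overlap of 99.0%, a median score of 177, a nearest member at 58994 bp and an octamer share of 29.6%. With a window of 50 bp, the shares were 35.1% and 22.5%, the median score 180.0, the nearest member at 48420.5 bp, the CA/TG share 2.43% and the octamer share 19.7%. With no POU3F1 peak within 500 bp, the shares were 47.3% and 32.5%. Requiring 50% of each peak to be shared gave 95.3%, and as many activin-free peaks as the EpiSC list holds gave an overlap of 84.1% and a stretch share of 43.2%. Protein-coding genes alone gave 42.2% in introns and 55.6% within 50 kb of a TSS. A purity of 80% gave 5.90% CA/TG repeats, and the whole peak gave 42.5% with an octamer. Chosen after seeing the data, stretches wholly inside the window gave 42.7% and stretches touching it 49.1% of POU5F1 peaks without POU3F1.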
